A study of Mus musculus with 31 samples.

Results

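The Hes and Hey genes encode basic helix-loop-helix transcriptional repressors that carry the signal of the Notch receptors to other genes. Described here were 7 genes: Hes1, Hes5, Hes6, Hey1, Hey2 and Heyl, and Nrarp, a Notch target that is not a Hes or Hey gene. They were chosen by name as known Notch effectors, with earlier results of these data known, and each was represented by its probe set with 1 gene symbol and the highest mean over all arrays. All 7 were measured, of 18194 genes in all. RNA had been hybridised to 31 Affymetrix mouse arrays, which gave 27 samples, and every mouse was of the C57BL/6 strain per the labels. The p53 heterozygous cultures were medulloblastoma cancer stem cells (CSC) of tumours 27 and B that arose in mice with Ptch het p53 het genotype (2 tumours, 3 technical arrays each, averaged). The p53 wild-type lines were CSC of 8 medulloblastomas that arose in Ptch het p53 wt mice, and the matched tissue of the same 8 tumours was also measured. Neural stem cells (NSC) came from the region of the IV ventricle, the cerebellar white matter and the subventricular zone (SVZ) of mice at postnatal day 7, with 3 cultures each. All tumour samples therefore carried the Ptch alteration, and no NSC was labelled with it. NSC and CSC were grown as neurospheres, floating clusters of cells, with the growth factors EGF and FGF2, and the tissues were not cultured. Each line stood for 1 tumour. IV ventricle and cerebellar NSC together are called hindbrain NSC.

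Notch receptors are activated by ligands of the Delta and Jagged families on neighbouring cells, cut by gamma-secretase, and their freed intracellular part enters the nucleus and joins the DNA-binding protein Rbpj to switch on targets such as Hes and Hey genes. In the developing brain, Hes1 and Hes5 repress proneural genes and keep radial glia and neural stem cells undifferentiated. Hey1 and Hey2 also serve Notch signalling in blood vessels, where Heyl is found in smooth muscle. Hes6 differs from the others in that it opposes Hes1 and favours neuronal differentiation, and Nrarp is a Notch target that in turn limits the signal.

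Upstream sequences are shown for Hes5, Hey2 and Nrarp, whose windows held a motif searched for here. The RefSeq promoter table (build GRCm38.p6, 250 bases before to 50 after each start) held 4 of the 7 members. Hes1, Hey1 and Heyl were not in it, so their sequences could not be searched. Searched on both strands for GTGGGAA, a form of the Rbpj site, the Hes5 window (chr4:154960673-154960972, plus strand) held it at 226 bases before the start on the opposite strand and at 83 bases before it on the gene's own strand. The Hey2 window (chr10:30842734-30843033, minus strand) held it at 207 bases before the start on the opposite strand and at 4 bases before it on the gene's own strand. The Nrarp window (chr2:25180508-25180807, plus strand) held no GTGGGAA but 1 copy of CACGTG, an E-box, at 108 bases before the start. Neither motif was found for the 2 starts of Hes6. Capitals mark these matches in the sequences, which are written 5′ to 3′ on the gene's own strand, and TTCCCAC is GTGGGAA on the opposite strand.
Hes5: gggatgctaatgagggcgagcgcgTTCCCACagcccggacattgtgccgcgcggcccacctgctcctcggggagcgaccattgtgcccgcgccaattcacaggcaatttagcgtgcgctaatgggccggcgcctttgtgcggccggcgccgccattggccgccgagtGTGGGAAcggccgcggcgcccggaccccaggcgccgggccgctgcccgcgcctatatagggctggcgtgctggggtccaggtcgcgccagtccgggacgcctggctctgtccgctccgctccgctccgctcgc
Hey2: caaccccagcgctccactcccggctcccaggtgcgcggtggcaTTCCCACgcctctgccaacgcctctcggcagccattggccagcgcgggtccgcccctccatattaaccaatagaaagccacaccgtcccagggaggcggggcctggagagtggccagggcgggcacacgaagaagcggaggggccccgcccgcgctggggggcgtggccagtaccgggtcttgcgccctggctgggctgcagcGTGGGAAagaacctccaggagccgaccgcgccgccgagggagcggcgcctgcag
Nrarp: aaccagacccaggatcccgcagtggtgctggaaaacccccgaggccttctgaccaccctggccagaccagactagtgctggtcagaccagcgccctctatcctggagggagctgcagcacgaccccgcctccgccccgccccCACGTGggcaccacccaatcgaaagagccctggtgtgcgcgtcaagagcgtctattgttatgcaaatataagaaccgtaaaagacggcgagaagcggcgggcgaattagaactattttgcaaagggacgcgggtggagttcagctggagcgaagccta
Of 32851 promoters of this length, 6.38% held at least 1 GTGGGAA and 0.256% at least 2, and 7.15% held at least 1 CACGTG. The motifs overlap neither each other nor themselves in these windows, and a match is a description of the letters, not of binding.

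Values below are log2 intensities, and differences are on the log2 scale with the standard error (SE) of the limma fit. A gene was called where its Benjamini-Hochberg adjusted p-value, taken over the 18194 genes, was under 0.05. The signal of silent genes was gauged from 3 Y-linked genes, which lay between 0.72 and 1.57 in the samples without a Y-linked signal, a range called the Y-linked guide below. The stem cell marker Sox2 lay at 9.36 and 9.74 in p53 heterozygous cultures and between 9.60 and 10.41 in p53 wild-type lines. It lay between 9.73 and 9.98 in NSC and between 4.80 and 6.42 in tissues. Of 11 neural stem and radial glia markers, 0 were higher and 6 lower in p53 heterozygous cultures than in hindbrain NSC. Of all genes, 13.8% were higher and 13.0% lower there. In lines against tissues, 6 of the 11 were higher and 4 lower (26.6% and 23.1% of all genes). Ptch1 was lower in the p53 wild-type lines (6.63 ± 0.75, SD, n = 8) than in hindbrain NSC (8.26 ± 0.23, n = 6), by 1.63 ± 0.32 (SE, adjusted p = 0.00414), and in the p53 heterozygous cultures it was 6.67 ± 1.30 (n = 2). Whether its probe set lies in the altered part of the allele is not given in the sources used here, so these levels do not check the genotype. The sample names carry date marks, and NSC shared none with the tumour samples, so date and group cannot be told apart in any comparison between them. The p53 heterozygous arrays also shared no mark with the p53 wild-type lines, and there too date and group cannot be told apart. In bulk RNA, fewer cells of a type and less RNA per cell cannot be told apart. Nothing says that all cultures of a group came from separate animals, and p-values then measure only the spread between these samples.

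**Figure D1:**
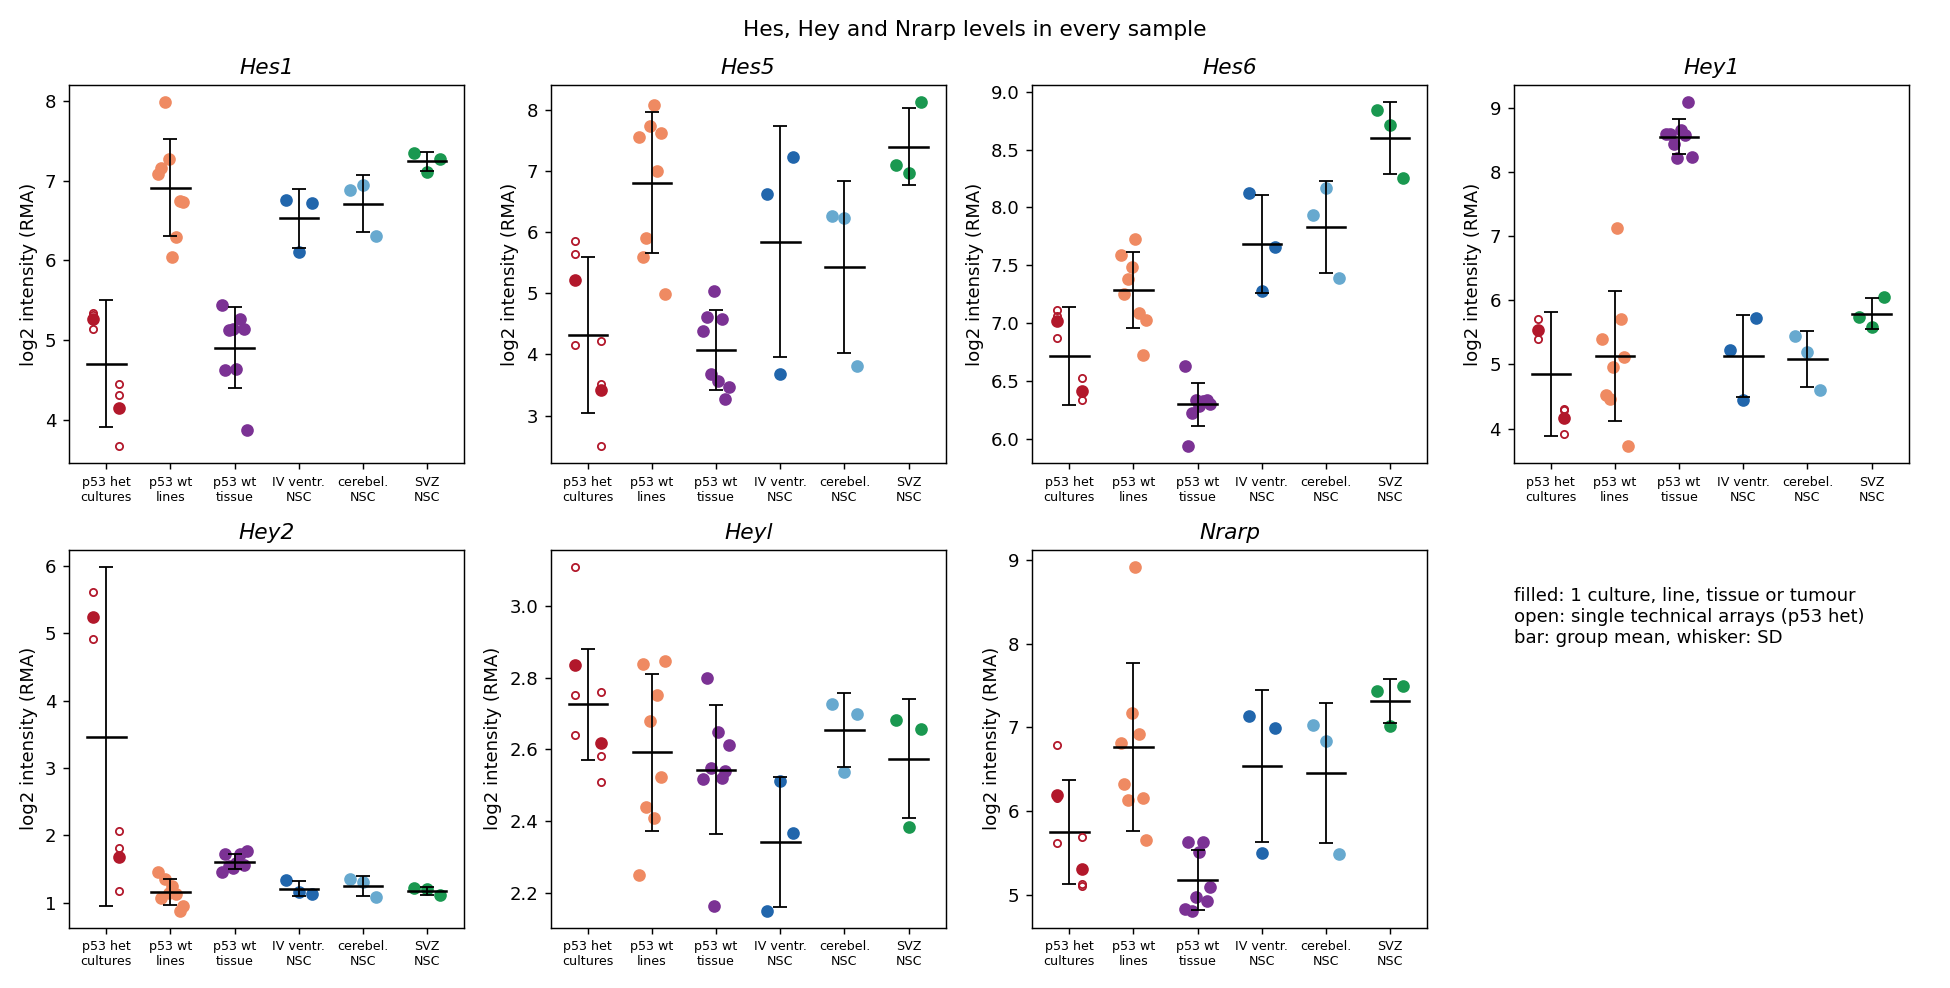
Log2 intensity of each of the 7 genes (y axis, RMA) by group (x axis), with 1 filled point per culture, line, tissue or tumour, open points for the single technical arrays of the p53 heterozygous tumours, bars for group means and whiskers for the SD. Hey1 lies above 8.2 in all 8 tissues and below 7.2 in every culture, Hey2 is high only on the 3 arrays of tumour 27, and Heyl stays below 3.2 on all arrays.

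Among NSC regions, 5 of the 7 genes (Hes1, Hes5, Hes6, Hey1 and Nrarp) had lower means in both hindbrain regions than in the forebrain SVZ, but none of these differences was called. Hes1 was at 6.76, 6.11 and 6.73 in IV ventricle NSC and at 6.89, 6.95 and 6.31 in cerebellar NSC, against 7.35, 7.11 and 7.28 in SVZ NSC. Each hindbrain culture thus lay below each SVZ culture, and of all genes 15.2% did not overlap between IV ventricle and SVZ NSC and 21% between cerebellar and SVZ NSC. The differences from SVZ were -0.72 ± 0.21 for IV ventricle (adjusted p = 0.233) and -0.53 ± 0.21 for cerebellar NSC (adjusted p = 0.313). Hes6 was at 8.12, 7.27 and 7.65 in IV ventricle NSC and at 7.93, 8.16 and 7.39 in cerebellar NSC, against 8.84, 8.71 and 8.25 in SVZ NSC. It too did not overlap with SVZ in either hindbrain region, with differences of -0.92 ± 0.26 (adjusted p = 0.2) and -0.77 ± 0.26 (adjusted p = 0.227). In the fit that blocked on the date mark, the cerebellar difference of Hes6 was called (-0.77 ± 0.10, adjusted p = 0.00638) and that of the IV ventricle was not (-0.62 ± 0.11, adjusted p = 0.0516). That fit called 728 of all 18194 genes in cerebellar against SVZ NSC, where the main fit called 201. IV ventricle 2 was alone on its date mark, so the IV ventricle difference of that fit rests on the other cultures.

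Hes5, a main effector in neural stem cells, ranged over 3.54 among IV ventricle, 2.46 among cerebellar and 1.16 among SVZ cultures. It was at 6.63, 3.69 and 7.23 in IV ventricle NSC and at 6.27, 6.24 and 3.81 in cerebellar NSC, against 7.11, 6.97 and 8.14 in SVZ NSC. The hindbrain cultures IV ventricle 2 and cerebellar 3 stood well below their group. Nrarp was at 7.13, 5.49 and 7.00 in IV ventricle NSC and at 7.03, 6.84 and 5.49 in cerebellar NSC, against 7.44, 7.02 and 7.50 in SVZ NSC. Hey1 was at 5.23, 4.45 and 5.72 in IV ventricle NSC and at 5.45, 5.19 and 4.60 in cerebellar NSC, against 5.73, 5.59 and 6.05 in SVZ NSC. In Hes5 and in Hey1 every cerebellar culture lay below every SVZ culture, regions between which 21% of all genes did not overlap. IV ventricle 2 and cerebellar 3 were the lowest of the 9 NSC for all 5 genes, Hes1 and Hes6 included. Their mean over 10 astrocyte markers was also the lowest of the 9 (5.74 in IV ventricle 2 and 5.84 in cerebellar 3, the others from 6.21 to 7.36), and its part in the result was not tested. Within the date mark that held cerebellar 1 and 2, IV ventricle 1 and SVZ 1 and 2, Hes5 differed from SVZ by -0.41 ± 0.14 in the IV ventricle and by -0.79 ± 0.12 in cerebellar NSC, against -1.56 ± 0.91 and -1.97 ± 0.91 over all dates. None of these 4 differences was called, and the within-date means rest on 1 or 2 cultures.

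Hey2 lay between 1.08 and 1.34 in all 9 NSC, within the range of the Y-linked guide, and Heyl between 2.15 and 2.73. Of the 7 genes, 0 were called in IV ventricle against SVZ NSC, where 0.764% of all genes were called (0.352% higher, 0.412% lower), and 0 in cerebellar against SVZ NSC, where 1.10% were (0.572% higher, 0.533% lower). Their median difference was -0.72 in the IV ventricle and -0.71 in cerebellar NSC, against 0.01 and 0.03 over all genes. Set against cerebellar NSC, the IV ventricle had 0 of the 7 genes and 0 of all 18194 genes called by limma (0%, in either direction), with 559 genes at an unadjusted p under 0.05. There the difference of Hes5 was 0.41 ± 0.91 and that of Heyl -0.31 ± 0.13, and at that p Heyl was among the 559. The 2 further probe sets of Heyl gave -0.26 and 0.12, on opposite sides of 0, and neither was called.

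In the p53 wild-type tumour lines, Hes1, Hes5, Hey1 and Nrarp were on average at or above the level of hindbrain NSC, with a wide spread among lines, and none of the 7 genes was called (0 of 7, against 9.56% of all genes, 3.51% higher and 6.06% lower). Hes1 had a lowest, median and highest value of 6.05, 6.92 and 7.99 in the lines, against 6.11, 6.74 and 6.95 in hindbrain NSC. Hes5 had 4.9985, 7.29 and 8.09 in the lines, against 3.69, 6.25 and 7.23 in hindbrain NSC. The ranges overlapped for both, although 4 of the 8 lines exceeded all 6 hindbrain cultures in each. For Hes1 these were the 4 lines that carry the first date mark. The differences were 0.29 ± 0.26 for Hes1 (adjusted p = 0.565) and 1.17 ± 0.63 for Hes5 (adjusted p = 0.288). Hey1 had 3.73, 5.04 and 7.12 in the lines and 4.45, 5.21 and 5.72 in hindbrain NSC, with a difference of 0.02 ± 0.40. Nrarp had 5.65, 6.57 and 8.92 in the lines and 5.49, 6.92 and 7.13 in hindbrain NSC, with a difference of 0.26 ± 0.43. Line 49 was the highest in both genes and in Hes5, and the lowest in Hes1, while line 83 was the lowest in Hes5, Hey1 and Nrarp.

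Hes6, the antagonist of Hes1, leaned the other way, with 6.72, 7.32 and 7.72 in the lines against 7.27, 7.79 and 8.16 in hindbrain NSC (-0.47 ± 0.18, adjusted p = 0.115). Against SVZ NSC it fell by 1.32 ± 0.23 (adjusted p = 0.00223), and every line lay below every SVZ culture. Of all genes, 9.73% did not overlap between lines and SVZ NSC. Hes6 was the only one of the 7 genes called against SVZ (1 lower, where 5.85% of all genes were called, 2.07% higher and 3.78% lower). The 4 lines of the first date mark and the 4 of the second, each set against hindbrain NSC, gave 0.76 ± 0.24 and -0.17 ± 0.23 for Hes1 and 1.06 ± 0.74 and 1.29 ± 0.79 for Hes5, none of them called. Hey2 was within the Y-linked guide in all 8 lines (0.88 to 1.45).

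The p53 heterozygous cultures had less Hes1 and Hes6 than hindbrain NSC and, in tumour 27 alone, a clear Hey2 signal. The technical arrays gave Hes1 values of 5.32, 5.14 and 5.34 for tumour 27 and 3.67, 4.31 and 4.45 for tumour B, below all 6 hindbrain NSC and all 8 p53 wild-type lines. Of all genes, 35.8% did not overlap between these cultures and hindbrain NSC, and 24.9% between them and the lines. The tumour means of Hes1 averaged 4.70 ± 0.80 (SD, n = 2), against 6.62 ± 0.34 in hindbrain NSC (n = 6) and 6.92 ± 0.61 in p53 wild-type lines (n = 8). Hes1 fell by 1.92 ± 0.39 relative to hindbrain NSC (adjusted p = 0.00121) and by 2.21 ± 0.38 relative to the lines (adjusted p = 0.00028). Tumour 27 alone, with B left out, differed from hindbrain NSC by -1.36 ± 0.48 (adjusted p = 0.0581).

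Hes6 was at 7.11, 6.87 and 7.06 in tumour 27 and at 6.39, 6.52 and 6.33 in tumour B. Both tumours lay below the lowest hindbrain culture, in a comparison where 35.8% of all genes did not overlap. Hes6 fell by 1.04 ± 0.27 relative to hindbrain NSC (adjusted p = 0.00804), but without tumour B the difference was -0.74 ± 0.35 (adjusted p = 0.164). Relative to the p53 wild-type lines it differed by -0.57 ± 0.26 (adjusted p = 0.135). Hes5 was at 5.65, 5.86 and 4.16 in tumour 27 and at 4.21, 3.52 and 2.50 in tumour B, a range of 1.70 and 1.71 between arrays that the labels call technical replicates of 1 tumour. Its difference was -1.33 ± 0.95 from hindbrain NSC (adjusted p = 0.363) and -2.50 ± 0.92 from the lines (adjusted p = 0.0547). The second of these lay near the threshold, and it was called under 5 of 26 other settings, with adjusted p from 0.00863 to 0.444.

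Hey2 was at 5.23, 5.61 and 4.92 on the arrays of tumour 27, and at 1.81, 2.06 and 1.18 on those of tumour B. On the 28 arrays of all other samples it lay between 0.88 and 2.06, and 22 of these were within the Y-linked guide. The mean of tumour 27 stood 3.68 above the upper end of the guide. As a group, the p53 heterozygous cultures were called higher than hindbrain NSC (2.24 ± 0.52, adjusted p = 0.0033) and than the lines (2.31 ± 0.50, adjusted p = 0.0021), where the low side gives only a bound. Without tumour 27 the difference was 0.46 ± 0.18 from hindbrain NSC (adjusted p = 0.085) and 0.53 from the lines (adjusted p = 0.0423). Tumour B lay near the guide throughout. Fitted on the compared groups only, the difference from hindbrain NSC was not called (adjusted p = 0.0623).

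Hey1 was at 5.39, 5.71 and 5.52 in tumour 27 and at 4.31, 4.28 and 3.91 in tumour B, and Nrarp at 6.16, 6.79 and 5.62 in tumour 27 and at 5.69, 5.11 and 5.13 in tumour B. Both genes were higher in tumour 27 than in B on nearly all arrays, as was the mean over 10 astrocyte markers (6.16 in tumour 27 and 4.55 in tumour B), whose part in the result was not tested. The group differences from hindbrain NSC were -0.25 ± 0.61 for Hey1 and -0.75 ± 0.65 for Nrarp, neither called. Of the 7 genes, 1 was higher and 2 were lower than in hindbrain NSC, where 26.8% of all genes were called (13.8% higher, 13.0% lower). Relative to the lines, 1 was higher and 1 lower, where 26.3% of all genes were called (14.5% higher, 11.8% lower). The comparison rested on 2 tumours, which also differed from the other cultures in cell type markers. Among 9 oligodendrocyte lineage markers, 5 were higher and 1 (Olig1) was lower than in hindbrain NSC. Their mean was 6.67 and 6.76 in these tumours, against 4.71 to 5.18 in the lines and 4.60 to 4.86 in hindbrain NSC. Over 11 neural stem and radial glia markers it was 6.54 and 6.76, against 7.28 to 8.24 in the lines and 7.45 to 7.80 in hindbrain NSC. Of 12 mural and fibroblast markers, 4 were higher and 0 lower than in hindbrain NSC, with a mean of 3.14 in tumour 27 and 3.62 in tumour B, against 2.51 to 2.81 in the lines and 2.47 to 2.67 in hindbrain NSC. The part of these markers in the result was not tested.

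**Figure D2:**
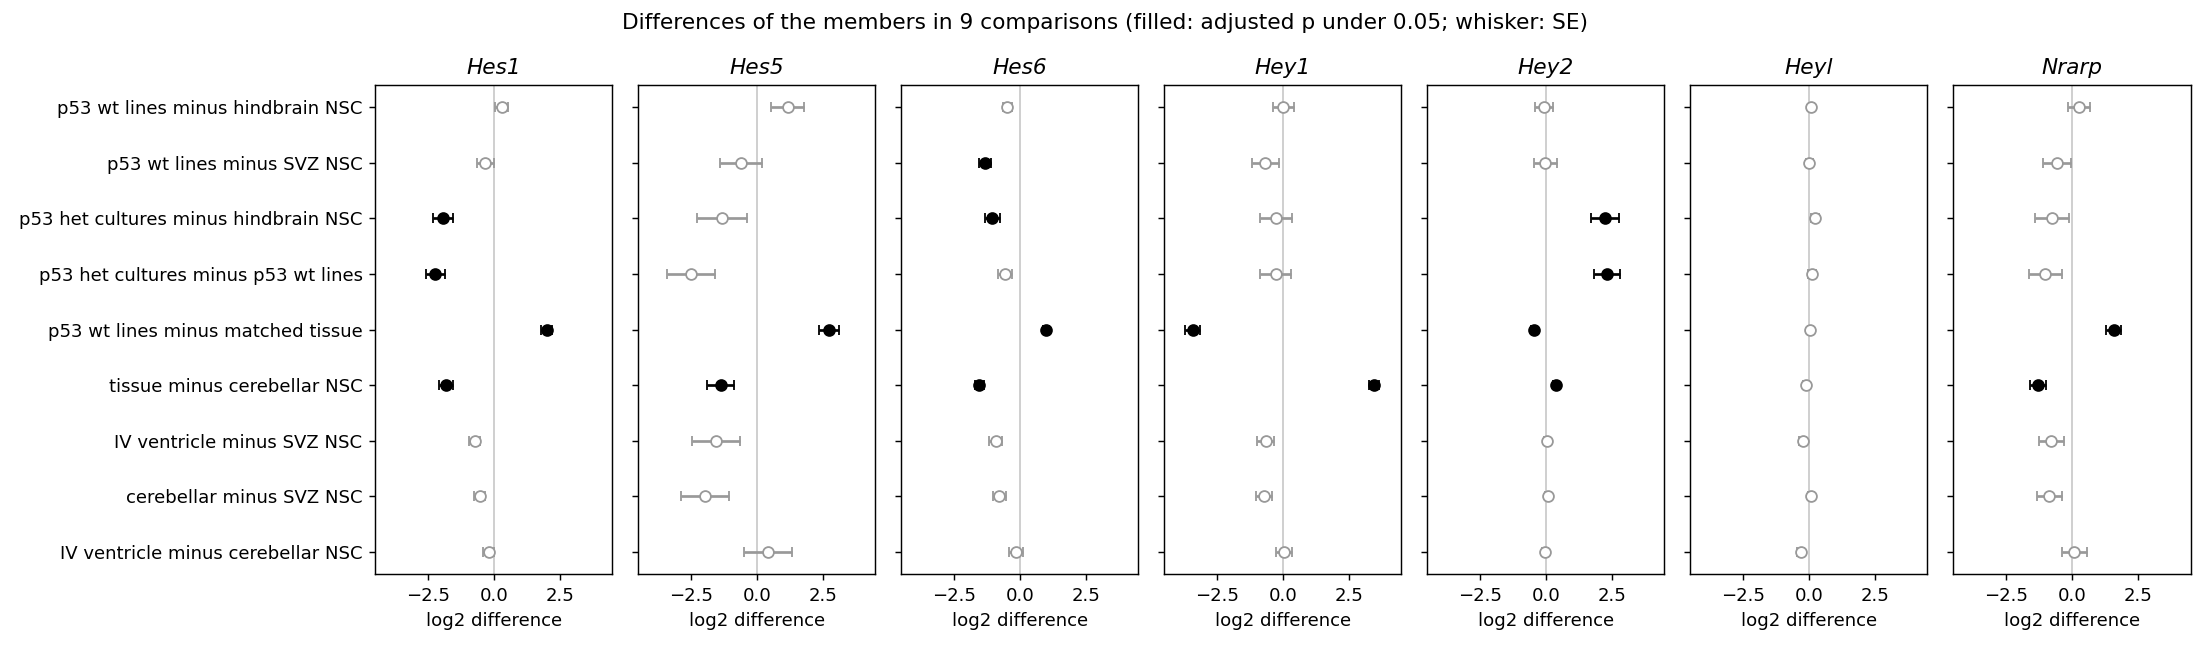
Log2 differences (x axis) of the 7 genes in the 9 comparisons (rows, first-named group minus second), with SE whiskers; filled points have an adjusted p under 0.05 in limma. Lines minus tissue and tissue minus cerebellar NSC hold 6 called genes each, and Hey1 lies on the other side of 0 from Hes1, Hes5, Hes6 and Nrarp in both.

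Between lines and the tissue of the same tumours, 6 of the 7 genes were called, 4 of them higher in lines and Hey1 and Hey2 lower. Hes1, Hes5, Hes6 and Nrarp were higher in the line than in its tissue in 8 of 8 tumours, while Hey1 was lower in 8 of 8. Hes1 had a lowest, median and highest value of 6.05, 6.92 and 7.99 in lines, against 3.87, 5.13 and 5.44 in tissues. The groups did not overlap, and the lines were higher by 2.01 ± 0.21 (adjusted p = 2.38e-05), a 4.04-fold difference. Of all genes, 22.9% did not overlap between lines and tissues. Hes5 had 4.9985, 7.29 and 8.09 in lines, against 3.26, 4.04 and 5.03 in tissues, with 1 line inside the tissue range. Its difference was 2.74 ± 0.37 (adjusted p = 0.000145), and over the pairs it ran between 0.99 and 4.51. Nrarp had 5.65, 6.57 and 8.92 in lines, against 4.81, 5.03 and 5.63 in tissues, higher by 1.59 ± 0.28 (adjusted p = 0.000818). Hes6 had 6.72, 7.32 and 7.72 in lines, against 5.94, 6.31 and 6.63 in tissues, higher by 0.99 ± 0.11 (adjusted p = 4.60e-05).

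Hey1 had 3.73, 5.04 and 7.12 in lines, against 8.22, 8.58 and 9.09 in tissues. It fell by 3.42 ± 0.28 in lines relative to tissue (adjusted p = 4.53e-06), which is 10.7-fold lower, and even line 49 lay below every tissue. The spread of Hey1 was 1.01 among lines and 0.27 among tissues (SD, n = 8 each). Hey2 was also called lower in lines (-0.46 ± 0.10, adjusted p = 0.00243), but it was at or near the Y-linked guide on both sides (0.88 to 1.45 in lines, 1.45 to 1.76 in tissues), so no fold is given. Heyl differed by 0.05 ± 0.09 (adjusted p = 0.695). Of the 7 genes, 4 were higher and 2 lower in lines, where 49.6% of all genes were called (26.6% higher, 23.1% lower). Their median difference was 0.99, against 0.06 over all genes. In the 4 tumours whose line and tissue shared a date mark, Hes1 (2.30 ± 0.20), Hes5 (2.27 ± 0.34), Hes6 (1.14 ± 0.09), Nrarp (1.55 ± 0.25) and Hey1 (-3.62 ± 0.18) were called again, and Hey2 was not (-0.31 ± 0.13, adjusted p = 0.106). That fit called 7307 of all 18194 genes.

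**Figure D3:**
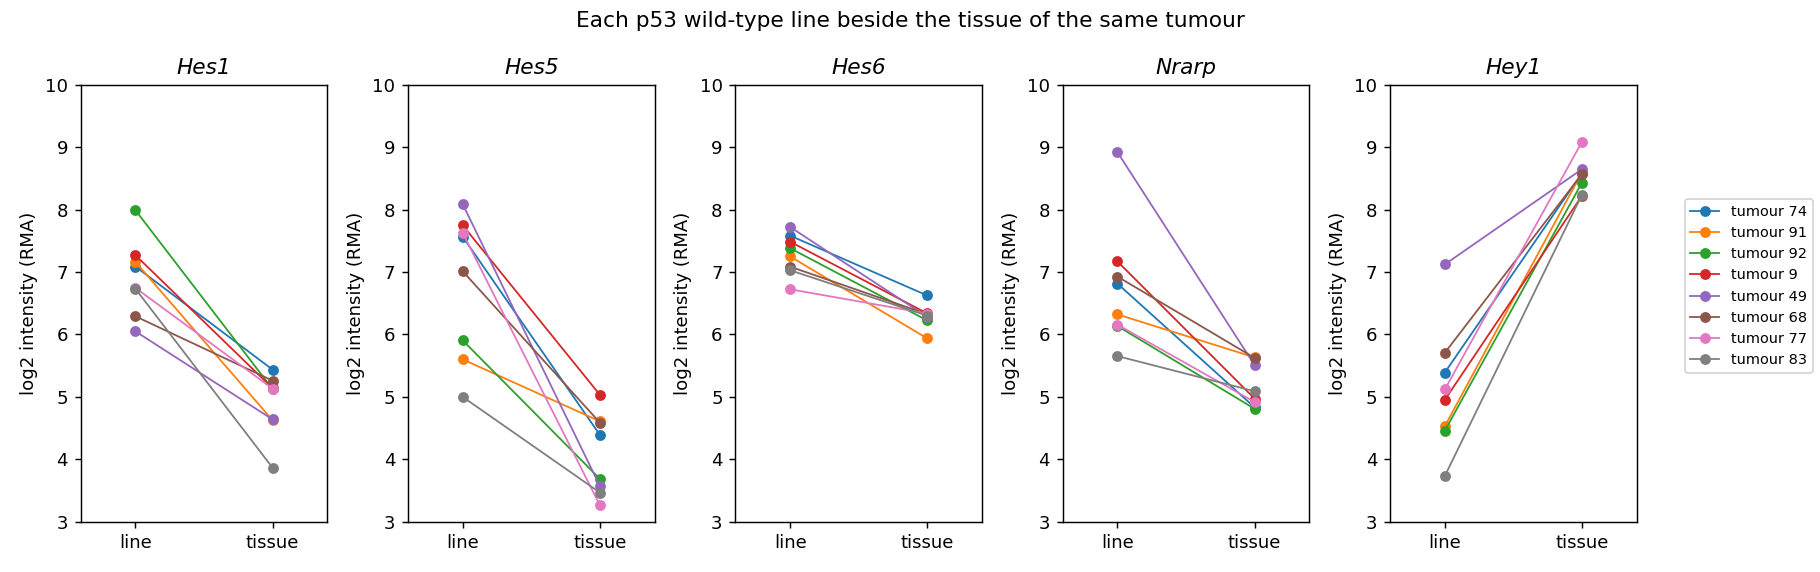
Log2 intensity (y axis, RMA) of 5 of the genes in each p53 wild-type line (left) joined to the tissue of the same tumour (right), 8 tumours in 8 colours. Every line lies above its tissue for Hes1, Hes5, Hes6 and Nrarp and below it for Hey1, whose tissue values lie between 8.22 and 9.09.

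The tissues also differed from the lines in cell type markers, in a comparison where 26.6% of all genes were higher and 23.1% lower in lines. Of 14 markers of neurons and granule neurons 12 were lower in lines (mean 3.17 to 4.14, against 7.97 to 8.83 in tissues), and of 12 microglia and macrophage markers 11 were (1.96 to 2.37 against 5.72 to 6.81). Of 12 endothelial markers, 11 were lower in lines (2.34 to 2.60 against 3.06 to 3.58), and Tie1 lay within the guide in every line. Of 12 mural and fibroblast markers, 11 were lower in lines (2.51 to 2.81 against 3.60 to 4.67). Of 11 neural stem and radial glia markers, 6 were higher and 4 lower in lines. Of 10 astrocyte markers 2 were higher and 5 lower, and of 9 oligodendrocyte lineage markers 1 was higher and 6 lower. The part of these cell types in the Hey1 difference, and in those of the other members, was not tested.

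Set against cerebellar NSC, the tissues had more Hey1 and less Hes1, Hes6 and Nrarp, in a comparison that shares its tissues with the one above. Of the markers, 11 of 14 for neurons, 10 of 12 for microglia and macrophages and 9 of 12 for endothelial cells were higher in tissues than in cerebellar NSC, and their part in the result was not tested. Hey1 was at 8.22, 8.58 and 9.09 (lowest, median and highest) in tissues, against 5.45, 5.19 and 4.60 in the 3 cerebellar cultures. It was higher by 3.46 ± 0.19 (adjusted p = 2.12e-08), an 11.0-fold difference, with no overlap. Of all genes, 36.8% did not overlap between tissues and cerebellar NSC. Hes1 fell by 1.81 ± 0.28 (adjusted p = 0.000184) and Hes6 by 1.53 ± 0.16 (adjusted p = 5.25e-06), both below every cerebellar culture in 8 of 8 tissues. Nrarp fell by 1.28 ± 0.30 (adjusted p = 0.00359), with 5 of 8 tissues below all cerebellar cultures. Hes5 was called at the edge of the threshold (-1.36 ± 0.51, adjusted p = 0.0475), with 4 of 8 tissues below all cerebellar cultures. Its call was lost in 11 of 21 other settings, among them leaving out cerebellar culture 1 (-0.95, adjusted p = 0.234) or 2 (-0.96, adjusted p = 0.225). Hey2 was called higher by 0.37 ± 0.09 (adjusted p = 0.00599), again near the guide. In all, 2 of the 7 genes were higher and 4 lower, where 43.6% of all genes were called (19.4% higher, 24.2% lower).

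Across the 6 groups, Hes1 was highest in SVZ NSC (7.25 ± 0.12), followed by p53 wild-type lines (6.92 ± 0.61), cerebellar (6.72 ± 0.36) and IV ventricle NSC (6.53 ± 0.37). Each step between neighbours among these 4 was smaller than the larger SD, although SVZ and IV ventricle NSC differed by 0.72, more than either SD, and a gap of 1.63 separated them from tissues (4.90 ± 0.51) and p53 heterozygous cultures (4.70 ± 0.80). Hes5 ran in the order SVZ (7.41 ± 0.64), lines (6.82 ± 1.16), IV ventricle (5.85 ± 1.90), cerebellar (5.44 ± 1.41), p53 heterozygous (4.32 ± 1.28) and tissue (4.08 ± 0.65), and no step between neighbours exceeded the SD. Nrarp ran in that same order, from 7.32 ± 0.26 in SVZ NSC to 5.17 ± 0.36 in tissue, again with no step beyond the SD. For Hes6 the steps from SVZ (8.60 ± 0.31) to cerebellar NSC (7.83 ± 0.40) and from lines (7.28 ± 0.33) to p53 heterozygous cultures (6.71 ± 0.42) exceeded the SD, and tissue was lowest at 6.30 ± 0.19. Hey1 was highest in tissue (8.55 ± 0.27), 2.76 above SVZ NSC (5.79 ± 0.24), and the remaining groups lay between 4.85 and 5.13, with SVZ NSC above the next, IV ventricle NSC, by 0.66 against an SD of 0.64. Heyl, between 2.34 in IV ventricle NSC and 2.73 in p53 heterozygous cultures, varied least of the 7.

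**Figure D4:**
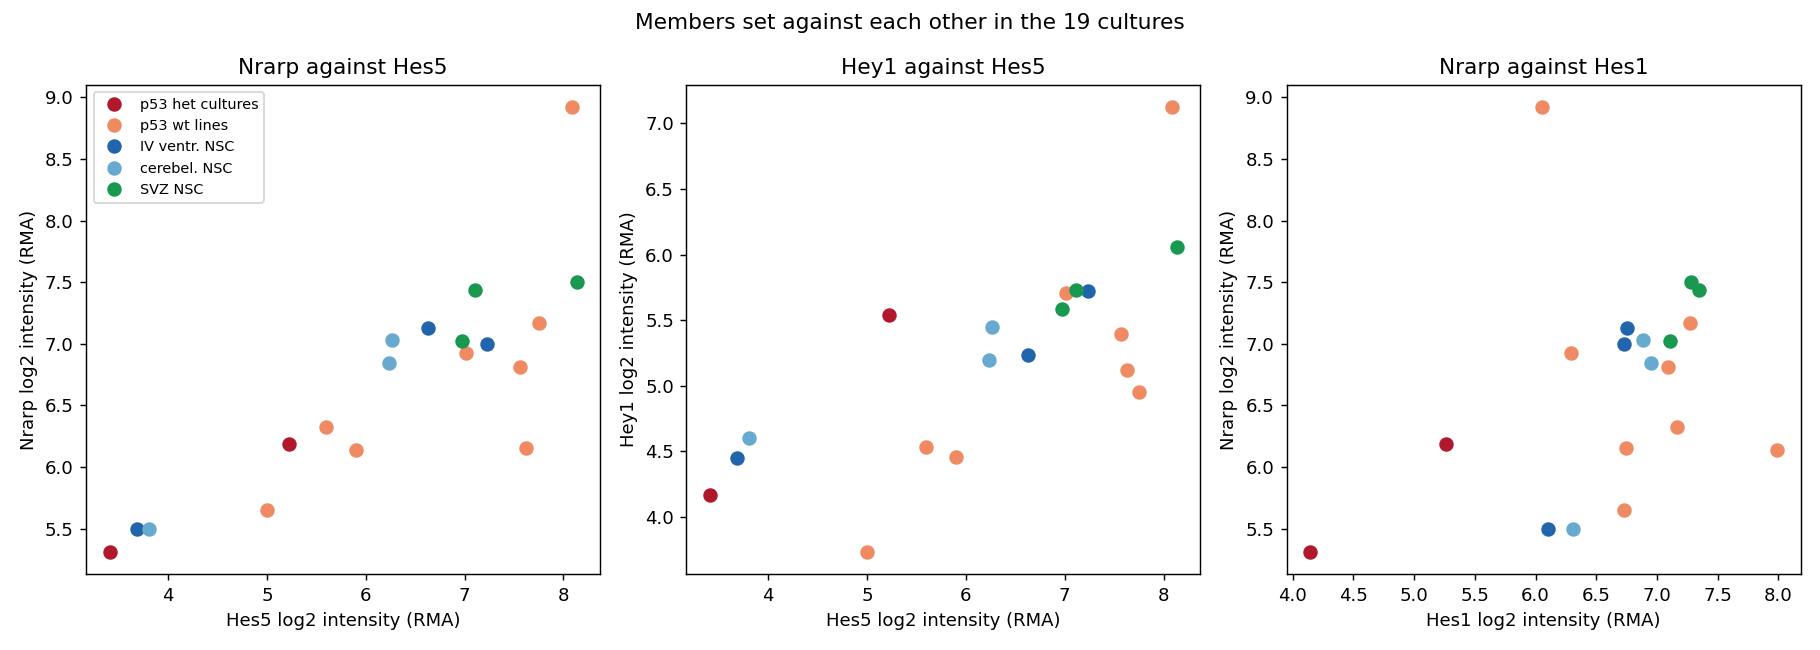
Pairs of genes plotted against each other in the 19 cultures (log2 intensity, RMA, on both axes), coloured by group. Nrarp, Hey1 and Hes5 are all low in tumour B, IV ventricle 2, cerebellar 3 and line 83. Tumour 27 has Hes5 at 5.22 beside Hey1 at 5.54, where the medians of the 19 cultures are 6.63 and 5.23. Line 49 has the highest Nrarp (8.92) beside the lowest Hes1 of the lines (6.05).

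Among the 8 p53 wild-type lines, Nrarp, Hey1 and Hes5 had positive correlations with each other and Hes1 had negative ones with them, none of which passed the adjustment. Hey1 and Nrarp had a Pearson r of 0.93 (exact permutation p = 0.00213, adjusted p = 0.0533 over 25 relations) and a Spearman rho of 0.81 (exact permutation p = 0.0218), and without lines 49 and 83 r was 0.58. Hes5 and Hey1 had an r of 0.80 (exact permutation p = 0.00947, adjusted p = 0.118) and a rho of 0.74 (exact permutation p = 0.0458), and 0.64 without lines 91 and 83. Hes5 and Nrarp had an r of 0.72 (exact permutation p = 0.0253, adjusted p = 0.211) and a rho of 0.79 (exact permutation p = 0.0279), and 0.63 without the same lines. The 25 relations covered lines, tissues and lines against their tissues. Within the 4 lines of the first and of the second date mark, given as a description with no test, r was 0.73 and 0.95 for Hey1 and Nrarp, 0.86 and 0.88 for Hes5 and Hey1, and 0.93 and 0.72 for Hes5 and Nrarp. Hes1 had an r of -0.38 with Hes5 (exact permutation p = 0.355, adjusted p = 0.642) and of -0.54 with Nrarp (exact permutation p = 0.173, adjusted p = 0.619), with rho of -0.21 (exact permutation p = 0.619) and -0.31 (exact permutation p = 0.462). Hes1 and Hey1 had an r of -0.63 (exact permutation p = 0.092, adjusted p = 0.46) and a rho of -0.60 (exact permutation p = 0.132). Without lines 92 and 49, r was 0.11 with Hes5, 0.19 with Nrarp and -0.25 with Hey1. Within the 2 date marks it was -0.44 and -0.58 with Hes5, -0.59 and -0.94 with Nrarp, and -0.63 and -0.89 with Hey1. A line's level was also weakly related to that of its own tissue, with r from 0.14 for Hes5 to 0.39 for Hey1 and an exact permutation p of 0.319 or more in all 5 genes tested (adjusted p from 0.642).

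Of 8900 brighter genes compared over the 19 cultures, which share groups and dates, those most like each member were found by Pearson r, given as a description. Hes1 was most like Adam17 (r = 0.93), the protease that can shed surface proteins, followed by Lrig1 (0.92), an antagonist of growth factor receptors, and Marcks (0.91). Hes5 was most like Nid1 (0.91), a basement membrane protein, Vcam1 (0.91), an adhesion molecule, and Abcd3 (0.90). Nckap5 led for both Nrarp (0.94) and Hey1 (0.92), and Ttyh1 stood among the first 3 of each (0.88 in both). Plpp3 was second for Nrarp (0.89), and Nmnat2 the third for Hey1 (0.86). Hes6 was most like Cnnm3 (0.88), Pcx (0.88), a mitochondrial carboxylase, and Rgma (0.87). The leading genes for Hey2, Srrd (0.92), Col6a2 (0.92) and Col27a1 (0.91), follow a pattern set by tumour 27. Heyl, with little spread, reached an r of 0.67 with Sipa1l2, 0.65 with Lig4 and 0.63 with Sik2.

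Of 12 Notch receptors and ligands, 0 were called among NSC regions and few in the p53 wild-type lines, where 9.56% of all genes were called against hindbrain NSC and 5.85% against SVZ NSC. Notch1 was at 8.98 ± 0.26 in the lines. In the lines, 1 was lower than in hindbrain NSC (Notch4, -0.36 ± 0.09, adjusted p = 0.0186) and 2 were lower than in SVZ NSC, among them the ligand Dll1 (-1.005 ± 0.27, adjusted p = 0.0342). Notch4 was at 1.93 in the lines and 2.29 in hindbrain NSC, not far above the Y-linked guide, which limits what its differences can show. In the p53 heterozygous cultures 3 of the 12 were higher and 4 lower than in hindbrain NSC, where 26.8% of all genes were called. Notch4 was among the higher, at 2.68. The receptor Notch1 fell by 1.31 ± 0.26 (adjusted p = 0.00101) and Dll1 by 1.73 ± 0.32 (adjusted p = 0.00059), and the ligand-like Dner fell by 2.98 ± 0.50 (adjusted p = 0.000243). Jag1, another ligand, was higher by 1.89 ± 0.51 (adjusted p = 0.00948) and Dlk1, a non-canonical ligand, by 1.45 ± 0.33 (adjusted p = 0.00336). The 2 tumours lay apart in several of these genes. Notch1 was at 8.36 in tumour 27 and 6.90 in tumour B (hindbrain NSC 8.95), and Dll1 at 5.49 and 4.44 (hindbrain NSC 6.70). Dlk1 was at 5.65 and 3.78 (hindbrain NSC 3.26), and Jag1 at 8.26 and 6.96 (hindbrain NSC 5.73). Tumour B thus carried most of the Notch1 difference, and tumour 27 most of that of Dlk1. The list's median difference was 0.06, against 0.03 over all genes.

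Between lines and tissue, 6 of the 12 receptors and ligands were higher in lines and 2 lower, where 49.6% of all genes were called (26.6% higher, 23.1% lower). Notch1 was at 8.98 ± 0.26 in lines and 4.74 ± 0.31 in tissues (difference 4.23 ± 0.11, adjusted p = 1.56e-09). Dll1 differed by 2.76 ± 0.19 (adjusted p = 1.13e-06) and Notch3 by 2.50 ± 0.21 (adjusted p = 5.17e-06). Notch4, a receptor of endothelial cells, and Dner went the other way, by -1.12 ± 0.12 (adjusted p = 3.61e-05) and -1.56 ± 0.23 (adjusted p = 0.000243). The list's median was 0.40, against 0.06 over all genes. In tissue against cerebellar NSC, 2 were higher and 5 lower, where 43.6% of all genes were called.

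Among 26 measured genes of Notch processing and of the nuclear complex, those called include the Fringe enzymes, which add sugars to Notch receptors. Mfng was the only one called between NSC regions, at 4.29 ± 0.27 in IV ventricle and 4.71 ± 0.19 in cerebellar NSC, against 5.91 ± 0.09 in SVZ NSC. Lfng fell by 4.34 ± 0.31 in p53 heterozygous cultures relative to hindbrain NSC (3.84 ± 0.35 against 8.18 ± 0.38, adjusted p = 1.84e-08) and by 1.80 ± 0.21 in the p53 wild-type lines (6.38 ± 0.49, adjusted p = 9.03e-05). The Deltex genes Dtx4 and Dtx1, which encode ubiquitin ligases that act on Notch, also fell in the lines, by 1.09 ± 0.21 (adjusted p = 0.00339) and 0.95 ± 0.24 (adjusted p = 0.0212). In all, 0 of the 26 were higher and 5 lower in the lines, and 3 were higher and 8 lower in the p53 heterozygous cultures, relative to hindbrain NSC, where 9.56% and 26.8% of all genes were called. Those higher in the heterozygous cultures were Psen2 (1.17 ± 0.24) and Psenen (0.43 ± 0.12), parts of gamma-secretase, and Rbpj (0.86 ± 0.20, adjusted p = 0.00358). Psen2 was at 5.78 in tumour 27 and 4.51 in tumour B, against 3.98 in hindbrain NSC. The list's median was -0.12 in the lines and -0.23 in the heterozygous cultures, against 0.00 and 0.03 over all genes. Between lines and tissue, 11 were higher and 5 lower in lines (49.6% of all genes were called), with Pofut2, an enzyme that adds fucose to proteins, higher by 1.38 ± 0.09 and Rbpj lower by 1.10 ± 0.12 (adjusted p = 2.37e-05).

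The 14 related repressors and partners include the co-repressors of the Tle family, which Hes proteins recruit, and the Id proteins. Relative to hindbrain NSC, 1 was higher and 1 lower in the p53 wild-type lines, where 9.56% of all genes were called. Tle4 fell by 2.19 ± 0.25 in the p53 wild-type lines relative to hindbrain NSC (5.62 ± 0.52 against 7.81 ± 0.59, adjusted p = 9.03e-05), and Tle2 was higher in IV ventricle than in SVZ NSC by 0.97 ± 0.15 (adjusted p = 0.0208). In the p53 heterozygous cultures, 2 of the 14 were higher and 4 lower than in hindbrain NSC (26.8% of all genes were called), with Tle5 lower by 1.94 ± 0.28 (adjusted p = 4.68e-05). Id4, an inhibitor of basic helix-loop-helix factors, was higher by 2.69 ± 0.55 (adjusted p = 0.00134), at 7.63 in tumour 27 and 4.87 in tumour B against 3.56 in hindbrain NSC. In lines against tissue 5 were higher and 3 lower (49.6% of all genes were called), with Tle2 higher by 2.38 ± 0.18 and Tle1 lower by 1.85 ± 0.09.

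Among 14 measured proneural and related helix-loop-helix genes, which Hes factors repress or which act with them, the counts differed by comparison. In lines, 3 were higher and 7 lower than in tissue, where 26.6% of all genes were higher and 23.1% lower. Olig2 and Olig1, glial lineage factors, were higher in lines by 3.85 ± 0.13 (adjusted p = 8.30e-09) and 3.20 ± 0.10 (adjusted p = 5.35e-09). Atoh1, the factor of granule neuron precursors, was at 2.45 ± 0.30 in lines and 7.90 ± 0.31 in tissues (-5.45 ± 0.14, adjusted p = 1.56e-09), and Insm1, a zinc-finger factor of neuronal precursors, was at 1.81 ± 0.29 in lines and 8.65 ± 0.13 in tissues. The list's median was -0.10 there, against 0.06 over all genes. Relative to hindbrain NSC, 1 was higher and 1 lower in the p53 wild-type lines, and 0 were higher and 4 lower in the p53 heterozygous cultures (9.56% and 26.8% of all genes were called), where Olig2 fell by 1.83 ± 0.17 (adjusted p = 5.48e-07) and Tcf4, a partner of proneural factors, by 1.73 ± 0.17 (adjusted p = 6.83e-07). No member of this list was called among NSC regions.

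Hes5, Hes6 and Nrarp each had a further probe set, and Heyl had 2. The chosen sets of Hes5 and Hes6 are of the kind that the maker marks as able to bind other transcripts, so the further sets are a check. In lines against tissue, the further sets gave 2.19 ± 0.37 for Hes5 (adjusted p = 0.000596), 1.03 ± 0.16 for Hes6 (adjusted p = 0.000358) and 1.08 ± 0.23 for Nrarp (adjusted p = 0.003), all called as before. For Hes5 in the p53 wild-type lines against hindbrain NSC it gave 0.48 ± 0.55, beside 1.17 ± 0.63 for the chosen set, neither called. For Hes6 in the p53 heterozygous cultures against hindbrain NSC it gave -0.94 ± 0.28 (adjusted p = 0.02).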

How the data were processed

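Total RNA had been labelled with biotin and hybridised to 1 Affymetrix array per sample, per the labels. The deposited values are log2 intensities that the authors made with RMA, per the submitters' processing notes; its version is not given in the sources used here. They were used as deposited, and array medians lay between 3.166 and 3.324. The number of arrays limits the precision.

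Of 45101 probe sets, 34958 carried 1 gene symbol in the platform table and gave 18194 genes, with the brightest probe set by the mean of 31 arrays taken for each. The members and lists were chosen with earlier results of these data known. The R package limma (version 3.58.1, R 4.3.3) was used to compare groups by lmFit and eBayes, two-sided, with Benjamini-Hochberg adjustment over all genes and a threshold of 0.05. The 9 NSC shared 1 fit, the 19 cultures another, in which 2 p53 heterozygous tumours were assumed to vary like the rest, and lines and tissues had the tumour as a block. Hindbrain NSC were the mean of both region means. All members were named, up to 3 genes per direction of each list could be, and the 3 genes most like each member by Pearson r were, without predicted or clone symbols; some so named are not shown.

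NSC with the same replicate number deviated together between IV ventricle and SVZ (r = 0.32, 0.25 and 0.32) and between cerebellar and SVZ cultures (r = 0.18, 0.34 and 0.17), so they were also fitted as pairs. Alternatives were other scalings, probe set rules, filters, priors, samples, references, date marks, technical arrays and leaving out each sample. The limma step was tested on simulated data. Figures used matplotlib 3.10.9.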

Additional observations from a re-analysis of the deposited data

Results flagged for a closer look

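Samples that stood apart from the rest of their group were sought in the 14 groups of 8 samples (7 genes in lines and in tissues) by the ratio of the gap to the range, which chance passes in about 1 group in 20, and 2 were found. Nrarp in line 49 was at 8.92, and the next line was at 7.17. Heyl in the tissue of tumour 9 was at 2.16, and the next tissue was at 2.52.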

How the results depend on the processing

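Over 1364 recomputed differences of the members under other settings, 1339 stayed on their side of the threshold, 18 lost a call and 7 gained one. Of those called in either fit, 0 changed sign. Differences called in neither fit could change sign and were counted as unchanged. Hes1 in p53 wild-type lines against hindbrain NSC, for example, ran from -0.17 to 0.76. The number of members called was also unchanged or within 1.5 times in 189 of 191 settings. With the date mark as a block, 1 member (Hes6) was called in cerebellar against SVZ NSC, where none was otherwise, and that fit called 728 of all genes. For the p53 heterozygous cultures against hindbrain NSC, leaving out 1 culture at a time left between 1 and 3 members called, with 1 called without tumour B. With the number of the replicate as a block (replicate block), 0 members were called in each regional comparison, and 196 genes were called in IV ventricle against SVZ, 280 in cerebellar against SVZ and 0 in IV ventricle against cerebellar NSC. Between the last 2, the paired deviations gave r of 0.38, -0.14 and -0.06, which do not settle whether the numbers pair them. Over all settings, limma called 51 to 196 genes in IV ventricle against SVZ (139 as reported), 61 to 728 in cerebellar against SVZ (201), 0 to 9 in IV ventricle against cerebellar NSC (0), 593 to 2860 in p53 wild-type lines against hindbrain NSC (1740) and 323 to 1671 against SVZ NSC (1064). In p53 heterozygous cultures the ranges were 3781 to 8582 against hindbrain NSC (4878) and 3588 to 8327 against the lines (4782), in lines against tissue 6250 to 16874 (9033), and in tissue against cerebellar NSC 5767 to 13941 (7926). The highest of these last counts come from testing all probe sets. In the fit of all 27 samples, Hey2 was not called in lines against tissue (adjusted p = 0.162). The causes were not tested. Hey2 and Heyl lie near the signal of silent genes, which limits what their differences can show.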
